A study of Mus musculus with 2 samples.

Results

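The 26S proteasome is the large protease that degrades proteins tagged with ubiquitin. Its barrel, the 20S core, is built from rings of alpha subunits (Psma genes), which gate the entrance, and rings of beta subunits (Psmb genes), some of which carry the proteolytic sites. A 19S regulatory particle caps the core: its base holds a ring of ATPases (Psmc genes) that unfold substrates, and its lid (Psmd genes) removes the ubiquitin chain. Other activators (Psme genes) and an inhibitor (Psmf1) can bind the core, and dedicated chaperones (Psmg genes and several Psmd genes) guide assembly. In the preimplantation embryo the proteasome is known for clearing maternal proteins, and its constitutive subunits are made in nearly all cells.

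The members described here are the protein-coding genes whose symbols begin with Psma to Psmg followed by a number. There were 50 of them among 52366 genes in the table. By their place in the particle, 19 belonged to the core, 9 to the base and 8 to the lid. A further 6 were activators or the inhibitor and 7 were assembly chaperones. The remaining gene, Psmc3ip, is a meiotic recombination factor and not a proteasome protein, and the name rule alone brought it in. A total of 48 members had at least 1 unique molecular identifier (UMI, the tag that marks 1 captured transcript), and 38 had a UMI in every embryo. The filter on low counts kept 40 members for testing, which needed 30.2 CPM in at least 6 embryos.

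The embryos were 24 pseudoblastocysts at 96 h post insemination (hpi), that is, embryos with a cavity, chosen without a check for an inner cell mass (ICM), so that some may have lacked one. They came from in vitro fertilization of oocytes of B6D2F1 females (8 to 9 weeks of age) with sperm of ICR males (15 to 20 weeks of age), and all had lost the zona pellucida. The 4 stages had 6 embryos each: 1C embryos grew from zygotes stripped of the zona at 5 hpi, 2CB embryos from single blastomeres isolated from 2-cell embryos at 24 hpi, and 4CB and 8CB embryos from single blastomeres of 4-cell and 8-cell embryos, both isolated at 48 hpi. Libraries were pooled in 2 sets, the first holding 1C and 8CB embryos and the second 2CB and 4CB embryos, so that pool and group cannot be told apart wherever these sides are compared. Values are CPM, meaning UMIs of a gene per 1000000 UMIs of that embryo. Because each UMI marks a transcript at its 3′ end, CPM are not scaled to gene length, and each test compares a gene only with itself across embryos. Values that combine genes (sums, shares and 1 ratio) are likewise compared only across embryos.

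Total UMIs ranged from 70941 to 1507471 per embryo, with a median of 313283 for the 1C and 8CB embryos and 388686 for the 2CB and 4CB embryos. Lineage markers also differed between the sides. Of all 5940 tested genes 55.3% were called different in 2CB and 4CB embryos (edgeR, adjusted p below 0.1), 31.3% higher and 24% lower, and the marker counts are read against these shares. Of 8 trophectoderm markers, all tested, 7 were called higher and 1, Tfap2c, lower in 2CB and 4CB embryos. Of the 7, Krt7, Krt8 and Elf5 never reached the filter's level of 30.2 CPM in 1C and 8CB embryos (highest 17.5, 11.7 and 8.53 CPM). They passed only through the side where they were high and are no support for the count. The summed level of the 8 markers was 391 to 999 CPM over 1C and 8CB embryos and 2373 to 5288 CPM over 2CB and 4CB embryos. Of 7 epiblast and ICM markers, 5 were tested, of which 3 were called lower and 2 higher. The summed level of that list was 536 to 1943 CPM in 1C and 8CB embryos and 245 to 942 CPM in 2CB and 4CB embryos. Pou5f1, a defining ICM gene, had only 33 UMIs in all. Of 7 primitive endoderm markers, 5 were tested, with 4 called higher and 1 lower, and the list summed to 631 to 1100 CPM against 799 to 2239 CPM. Of the 4, Sox17 and Lama1 also stayed below 30.2 CPM in all 1C and 8CB embryos (highest 24.3 and 3.11 CPM). They are likewise no support for the count. The 6 oocyte markers, none of which passed the filter, summed to 12.1 to 103 CPM in 1C and 8CB embryos and 0 to 19.1 CPM in 2CB and 4CB embryos. All 6 cumulus cell markers were at 0. The part of these shifts in the proteasome results below was not tested. In whole embryos, fewer cells of a type and less RNA per cell cannot be told apart.

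Proteasome genes are known to be induced together by the factor Nfe2l1 through the antioxidant response element, whose core is TGACNNNGC. RefSeq promoters (250 bases before to 50 after the start, GRCm38.p6) were matched to 42 members. On either strand, the core was found in 6 of these, or 14.3%, and in 14.0% of the 27025 genes with a promoter. The CCAAT box, spelled CCAAT, was held by 15 members (35.7%) against 41.1% of all genes. The ETS-type sequence CCGGAAG was held by 15 members (35.7%) against 9.93% of all genes. These background shares cover all genes with a promoter, expressed here or not. None was taken over the 5940 tested genes. A match describes letters in this window only. Among members called different between the sides of the study, the 4 promoters with the antioxidant core are printed below, since they include the genes that moved furthest in opposite directions among the constitutive catalytic subunits, Psmb5 and Psmb6. Capitals mark the 9-base antioxidant core and, in Psmc6 and Psmd12, also the 7-base ETS-type sequence. Psmb5 lies at chr14:54617946-54618245 (minus strand), Psmb6 at chr11:70525107-70525406, Psmc6 at chr14:45329574-45329873 and Psmd12 at chr11:107479278-107479577 (all plus strand).
Psmb5: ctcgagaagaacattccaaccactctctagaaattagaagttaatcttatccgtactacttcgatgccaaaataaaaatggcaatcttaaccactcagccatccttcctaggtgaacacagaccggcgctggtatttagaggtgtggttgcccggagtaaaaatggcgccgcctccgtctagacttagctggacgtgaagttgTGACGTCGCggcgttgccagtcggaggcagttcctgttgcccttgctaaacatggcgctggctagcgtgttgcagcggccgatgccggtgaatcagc
Psmb6: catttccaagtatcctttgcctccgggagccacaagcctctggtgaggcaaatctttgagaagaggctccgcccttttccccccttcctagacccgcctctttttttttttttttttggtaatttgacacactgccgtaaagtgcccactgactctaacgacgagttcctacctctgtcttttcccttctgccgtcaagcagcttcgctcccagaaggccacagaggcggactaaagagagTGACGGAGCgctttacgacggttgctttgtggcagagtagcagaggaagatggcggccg
Psmc6: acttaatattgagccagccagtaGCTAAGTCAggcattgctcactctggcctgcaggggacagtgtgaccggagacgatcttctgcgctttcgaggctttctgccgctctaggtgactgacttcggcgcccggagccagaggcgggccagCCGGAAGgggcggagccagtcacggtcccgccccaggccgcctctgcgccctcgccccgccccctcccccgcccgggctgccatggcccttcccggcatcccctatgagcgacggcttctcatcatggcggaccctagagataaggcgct
Psmd12: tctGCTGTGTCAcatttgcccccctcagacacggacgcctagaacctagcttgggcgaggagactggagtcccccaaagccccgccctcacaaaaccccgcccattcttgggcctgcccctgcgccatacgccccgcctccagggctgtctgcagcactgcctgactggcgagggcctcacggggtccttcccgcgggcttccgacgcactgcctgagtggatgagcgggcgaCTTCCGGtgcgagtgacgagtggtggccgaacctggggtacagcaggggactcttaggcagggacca
The core began 47 bases before the start in Psmb5 and 9 bases before it in Psmb6, on the strand of the gene in both. In Psmc6 and Psmd12 it lay on the opposite strand, beginning 227 and 247 bases before the start. Of the members with a promoter, the core was held by 3 of 14 called lower, 1 of 2 called higher and 2 of 19 tested but not called. The ETS-type sequence was held by 7 of 14 called lower, 0 of 2 called higher and 7 of 19 not called.

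The main division compared 2CB and 4CB embryos with 1C and 8CB embryos, 12 against 12. A gene was called when its Benjamini-Hochberg adjusted p, over all 5940 tested genes, was below 0.1 in edgeR's quasi-likelihood test. The proteasome genes that were called were mostly lower in 2CB and 4CB embryos: 17 of 40 were called lower and 2 were called higher, while 21 were not called. Against the 24% of all tested genes called lower and 31.3% called higher, the members' share called lower (42.5%) stood above the background and their share called higher (5.0%) below it. Of the tested members 37 passed the filter on both sides of this division, as did 3733 of all 5940 tested genes. Psma4 and Psmb10 passed only through 1C and 8CB embryos and Psmd10 only over both sides together. Psmb10, 1 of the 17 called lower, is therefore no support for that share. Of all tested genes, 1133 passed only through 2CB and 4CB embryos and 572 only through 1C and 8CB embryos. The background shares thus hold directions that the filter could fix. No share was taken over the genes that passed on both sides alone. The members' median log2 fold change was -0.29, against 0.12 for all tested genes, and 27 of 40 members (67.5%) had a negative value against 45.0% of all genes. No member separated the sides completely. Each member had at least 1 embryo of one side within the range of the other. Of all genes only 5.74% did not overlap, 3.54% with every 2CB and 4CB embryo higher and 2.21% with every one lower. At so small a share, 0 of 40 members is near the background.

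**Figure D1:**
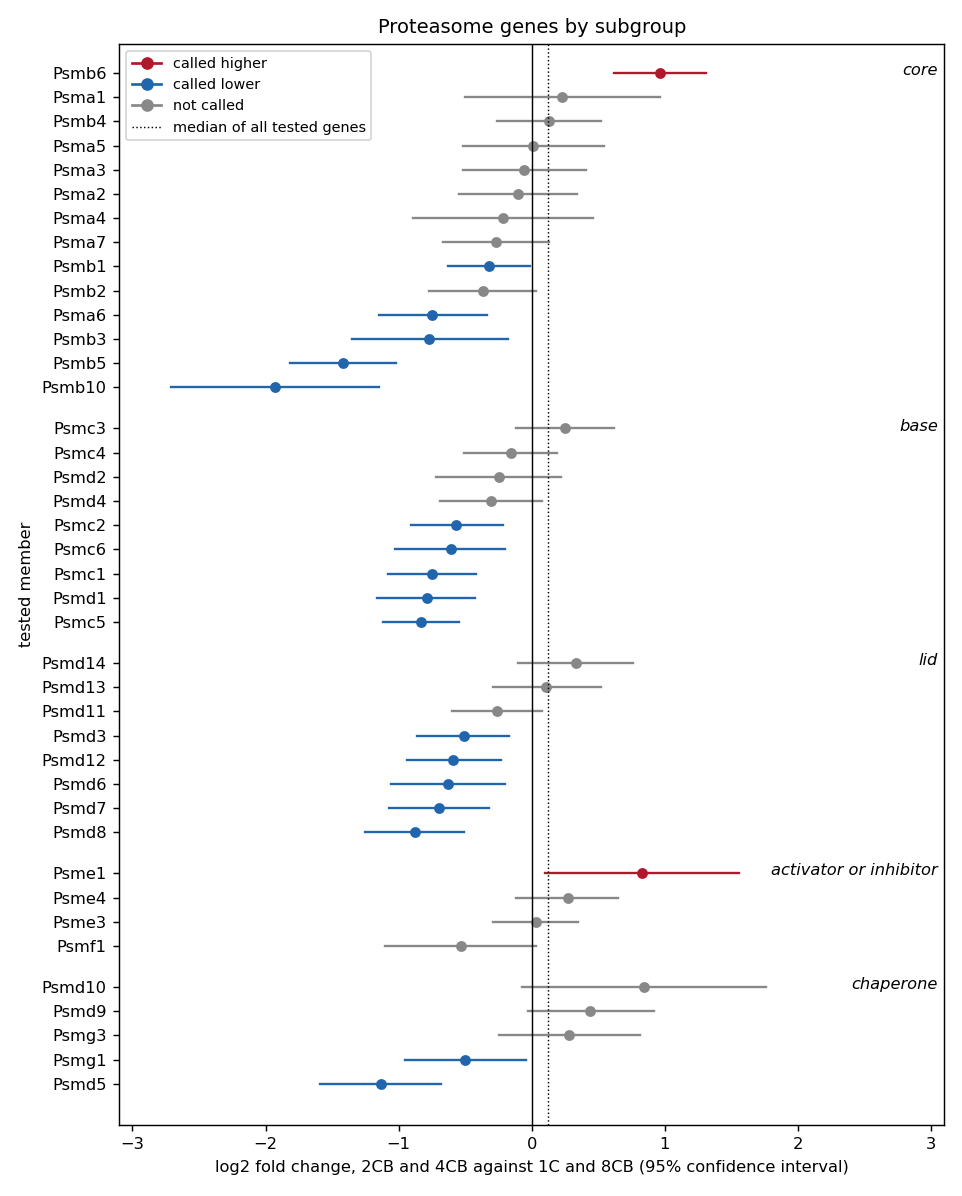
Log2 fold change of each of the 40 tested members between the sides, with 2CB and 4CB embryos set against the rest (horizontal axis, with 95% confidence intervals), grouped by place in the proteasome. Blue points were called lower (17 genes), red points higher (Psmb6 and Psme1) and grey points not called, and the dotted line is the median of all tested genes at 0.12.

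The counts by subgroup are read against the 24% of all genes called lower, the 31.3% called higher and their median of 0.12. In the base 5 of 9 tested members were called lower and none higher, with a median log2 fold change of -0.57. In the lid 5 of 8 were called lower and none higher, with a median of -0.55. In the core 5 of 14 were called lower and 1 higher, with a median of -0.24, and the lower calls include Psmb10, which the filter kept only through the side where it was high and which is therefore no support for the count. Of the 4 tested activators and inhibitor, 1 was called higher (25.0%, near the background) and none lower, and their median was 0.15. Of the 5 tested chaperones 2 were called lower, and the median was 0.28. Whether the subgroups differed from one another was not tested.

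The constitutive catalytic sites of the core sit on Psmb5 (chymotrypsin-like activity), Psmb6 (caspase-like activity) and Psmb7 (trypsin-like activity). Psmb5 and Psmb6 moved in opposite directions. Psmb5 (ENSMUSG00000022193, chr14:54614120-54617995 in GRCm38, minus strand) had a lowest, median and highest level of 162, 232 and 273 CPM in 1C embryos. The 8CB embryos gave 128, 296 and 396 CPM. The levels were 62.6, 90.3 and 115 CPM in 2CB embryos and 78.7, 106 and 152 CPM in 4CB embryos. All 2CB embryos were below all 1C and 8CB embryos, and only the highest 4CB embryo reached into the range of 8CB. Psmb5 was 2.68-fold lower in 2CB and 4CB embryos (log2 fold change -1.42 ± 0.20 SE, adjusted p = 9.32e-07). Of the 50-base windows in the last 300 bases of its transcripts, 51.4% also occur in the processed pseudogene Gm3375, which had 30 UMIs against 1376 for Psmb5.

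Psmb6 (ENSMUSG00000018286, chr11:70525367-70527858, plus strand) moved the other way. Its lowest, median and highest levels were 322, 464 and 592 CPM in 1C embryos and 338, 484 and 606 CPM in 8CB embryos. They were 805, 873 and 1394 CPM in 2CB embryos and 459, 987 and 1149 CPM in 4CB embryos. Every 2CB embryo exceeded every 1C and 8CB embryo, and the lowest 4CB embryo lay among them. Psmb6 was 1.95-fold higher in 2CB and 4CB embryos (log2 fold change 0.96 ± 0.17 SE, adjusted p = 2.59e-05), and its 3′ windows were shared with no other gene. Psmb7 could not be followed: it had 62 UMIs in all, and 82.1% of its 3′ windows lie in the overlapping gene Nek6, which had 670 UMIs.

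The number of Psmb6 UMIs per Psmb5 UMI, a ratio chosen after the values of both were seen, had a median of 1.91 in 1C embryos and 1.84 in 8CB embryos. It was 11.5 in 2CB embryos and 9.37 in 4CB embryos. The ratio ranged from 1.20 to 3.20 over the 12 embryos of the 1C and 8CB stages. Over the 2CB embryos it ranged from 7.80 to 14.1, and over the 4CB embryos from 4.00 to 12.5. Since it pairs genes picked for their opposite directions, the ratio restates the changes given above and is no separate result. It is a ratio of UMIs and says nothing of the ratio of the proteins.

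**Figure D2:**
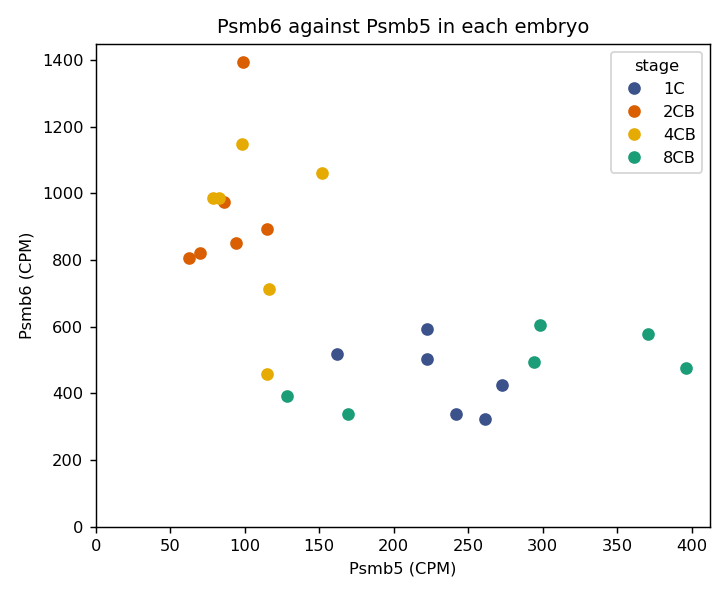
Psmb6 (vertical axis, CPM) against Psmb5 (horizontal axis, CPM), 1 point for each of the 24 embryos, coloured by stage. The 2CB and 4CB embryos lie at the upper left and the 1C and 8CB embryos at the lower right, and the lowest 4CB embryo (459 CPM of Psmb6) lies nearest to the other side.

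Immune and interferon-exposed cells replace these sites with inducible subunits, Psmb8 for Psmb5, Psmb9 for Psmb6 and Psmb10 for Psmb7. Psmb10 (ENSMUSG00000031897) had levels of 32.4, 44.9 and 96.2 CPM (lowest, median, highest) in 1C embryos and 18.7, 42.7 and 113 CPM in 8CB embryos. In 2CB embryos these were 2.87, 23.1 and 27.9 CPM and in 4CB embryos 3.99, 10.1 and 19.8 CPM. All 2CB and 4CB embryos were below all 1C embryos, while the lowest 8CB embryo fell in their range. Psmb10, with 229 UMIs, was 3.81-fold lower in 2CB and 4CB embryos (log2 fold change -1.93 ± 0.38 SE, adjusted p = 0.000126). It passed the filter through the side where it was high: 11 of the 12 embryos of 1C and 8CB reached the filter's level of 30.2 CPM and none of the others did, so that a tested Psmb10 had to differ.

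Psmb9 did not pass the filter, with 176 UMIs. Its lowest, median and highest levels were 2.89, 15.6 and 32.1 CPM in 1C, 4.64, 32.7 and 40.6 CPM in 2CB, 0, 5.06 and 21.7 CPM in 4CB and 0, 0 and 11.2 CPM in 8CB embryos. The ranges of the 4 stages overlapped. Without a filter its log2 fold change between the sides was 1.07 (adjusted p = 0.163). In some fits without 1 embryo it passed the filter, and it was called higher without 8CB replicate 1 (1.57, adjusted p = 0.0448), 2CB replicate 4 (1.18, adjusted p = 0.0773), 4CB replicate 4 (1.18, adjusted p = 0.0882), 1C replicate 5 (1.22, adjusted p = 0.0920) or 4CB replicate 5 (1.14, adjusted p = 0.0962). Psmb8 had no UMI among 9610785, which allows a level of up to 0.312 CPM over all embryos (3 counts, counting error only). Psmb11, the thymic beta subunit, had 15 UMIs in 3 embryos, and Psma8, the alpha subunit of male germ cells, had 8 UMIs. Neither was tested.

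**Figure D3:**
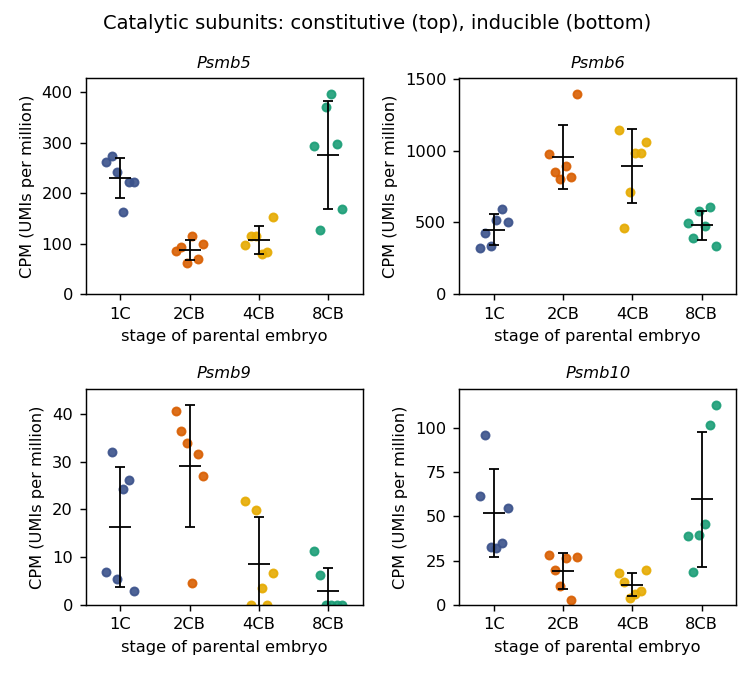
CPM of the constitutive catalytic subunits Psmb5 and Psmb6 (top) and the inducible subunits Psmb9 and Psmb10 (bottom) in each embryo, by stage of the parental embryo, with bars at the mean ± SD (n = 6, lower bars end at 0). Psmb5 and Psmb10 are lower and Psmb6 is higher in most 2CB and 4CB embryos, and Psmb9 overlaps among all 4 stages.

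The structural beta subunits and the alpha ring gave smaller differences. Psmb3 (log2 fold change -0.77) and Psmb1 (-0.32, adjusted p = 0.0800) were called lower, and Psmb2 (-0.37) and Psmb4 (0.13) were not called. The call of Psmb1 was lost with DESeq2's size factors, without a filter, after thinning to equal depth and with the replicate block. Psmb3 varied widely within stages, from 205 to 1226 CPM among 4CB embryos and from 439 to 1804 CPM among 8CB embryos, and 51.4% of its 3′ windows recur in pseudogenes. Of the 7 tested alpha subunits, Psma6 alone was called. Its lowest, median and highest levels were 235, 384 and 510 CPM in 1C, 240, 419 and 604 CPM in 8CB, 185, 247 and 304 CPM in 2CB and 112, 228 and 441 CPM in 4CB embryos. These ranges overlapped, and the gene was 1.68-fold lower in 2CB and 4CB embryos (adjusted p = 0.00247). The other 6 alpha subunits had log2 fold changes from -0.27 (Psma7) to 0.23 (Psma1) and were not called. Psma5 and Psma3 share 57.8% and 36.6% of their 3′ windows with pseudogenes.

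The base ring of ATPases engages and unfolds substrates. Of its 6 subunits, Psmc5, Psmc1, Psmc6 and Psmc2 were called lower, with log2 fold changes of -0.83, -0.75, -0.61 and -0.57. The call of Psmc6 was lost after thinning to equal depth. Psmc4 (-0.16) and Psmc3 (0.25) were not called. Psmc5 was the most uniform member, with the lowest biological coefficient of variation (BCV, the fitted spread between embryos of a stage) at 0.238. Its lowest, median and highest levels were 931, 1064 and 1435 CPM in 1C and 881, 982 and 1184 CPM in 8CB embryos. They were 500, 577 and 919 CPM in 2CB and 472, 504 and 710 CPM in 4CB embryos. All 4CB embryos were below all 1C and 8CB embryos, and the highest 2CB embryo exceeded the lowest of 8CB. Psmc5 was 1.78-fold lower in 2CB and 4CB embryos (adjusted p = 1.41e-05).

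Psmd1, a scaffold of the base, had 26685 UMIs. Its lowest, median and highest levels were 2808, 4591 and 5995 CPM in 1C and 1578, 3876 and 6047 CPM in 8CB embryos. They were 1674, 2291 and 3022 CPM in 2CB and 1921, 2440 and 3762 CPM in 4CB embryos. The lowest embryo of all was an 8CB embryo, so that the sides overlapped although their medians were apart. Psmd1 was 1.73-fold lower in 2CB and 4CB embryos (log2 fold change -0.79 ± 0.18 SE, adjusted p = 0.000512). Of its 3′ windows, 72.5% also belong to the readthrough gene Gm21972, which had 0 UMIs. Psmd2, the other scaffold of the base, and Psmd4, a ubiquitin receptor, had log2 fold changes of -0.25 and -0.31 and were not called.

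In the lid, Psmd8, Psmd7, Psmd6, Psmd12 and Psmd3 were called lower, with log2 fold changes of -0.88, -0.70, -0.63, -0.59 and -0.51. Thinning to equal depth lost the call of Psmd6. The lowest, median and highest levels of Psmd8, a lid subunit, were 502, 709 and 1363 CPM in 1C and 564, 835 and 1185 CPM in 8CB embryos. They were 334, 446 and 664 CPM in 2CB and 294, 417 and 516 CPM in 4CB embryos. The ranges of the sides overlapped between 502 and 664 CPM. Psmd14, the enzyme that cuts ubiquitin chains from substrates, was not called, with a log2 fold change of 0.33 (95% confidence interval -0.10 to 0.76, and 0.15 without 4CB replicate 4), nor were Psmd11 (-0.26) and Psmd13 (0.11). Its partner Psmd7, the catalytically inactive subunit paired with it, was 1.62-fold lower (adjusted p = 0.00252). Psmd7 was highest in 1C embryos, at 322, 363 and 696 CPM (lowest, median, highest). The levels of 174, 230 and 381 CPM in 8CB embryos overlapped those of 127, 199 and 240 CPM in 2CB and 155, 216 and 290 CPM in 4CB embryos.

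**Figure D4:**
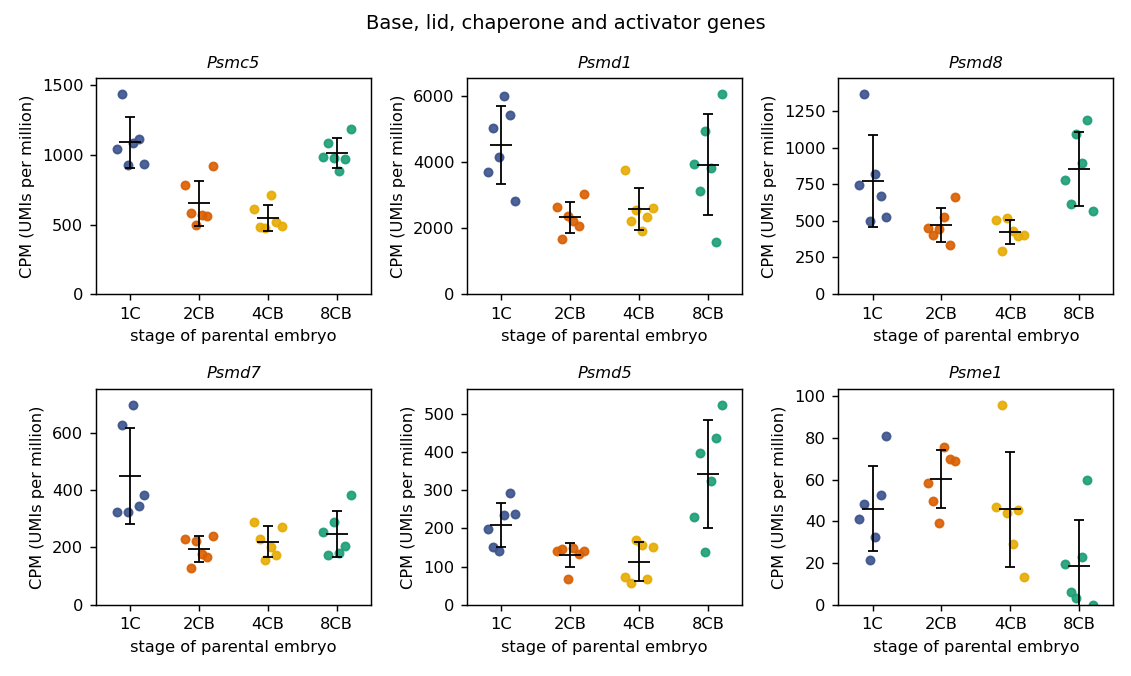
CPM of genes of the base (Psmc5, Psmd1), lid (Psmd8, Psmd7), chaperones (Psmd5) and activators (Psme1) in each embryo, by stage of the parental embryo, with bars at the mean ± SD (n = 6, lower bars end at 0). Psmc5, Psmd1, Psmd8 and Psmd5 have lower means in 2CB and 4CB embryos, Psmd7 stands out in 1C embryos, and Psme1 has its lowest median in 8CB embryos, at 12.9 CPM.

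Of 3 tested activators 1, Psme1, was called, and its call depended on single embryos. Psme1 and Psme2 form the PA28 activator, which is linked to antigen processing. Psme1 had levels of 21.7, 44.6 and 80.8 CPM (lowest, median, highest) in 1C and 39.1, 63.8 and 75.8 CPM in 2CB embryos. It had 13.2, 44.5 and 95.7 CPM in 4CB and 0, 12.9 and 59.7 CPM in 8CB embryos. All stages overlapped, and Psme1 was called higher in 2CB and 4CB embryos with a log2 fold change of 0.83 ± 0.36 SE (adjusted p = 0.0550). The call was lost when 1C replicate 3, 4CB replicate 2, 8CB replicate 2 or 8CB replicate 3 was left out, with log2 fold changes of 0.71, 0.61, 0.68 and 0.66, and also without a filter on low counts. Against 8CB alone Psme1 was called higher, with a log2 fold change of 1.77 in 2CB (adjusted p = 0.0104) and 1.3 in 4CB embryos (adjusted p = 0.0656). Against 1C alone the log2 fold change was 0.36 in 2CB and -0.11 in 4CB embryos, and neither was called (adjusted p = 0.586 and 0.888). Its partner Psme2 had 2 UMIs and its paralog Psme2b 0 UMIs, and 58.8% of the Psme2 windows recur in Psme2b or the pseudogene Gm7928.

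Psme3, the nuclear activator PA28 gamma, had a log2 fold change of 0.03 with a 95% confidence interval of -0.29 to 0.35, and its sign changed with the embryos left out. Its stage medians were 668 CPM in 1C, 709 CPM in 2CB, 819 CPM in 4CB and 834 CPM in 8CB embryos, and the ranges overlapped. Psme4, the activator PA200, had a log2 fold change of 0.27 (interval -0.12 to 0.65, and 0.13 without 4CB replicate 3), and the inhibitor Psmf1 one of -0.53 (interval -1.10 to 0.03). None of the 3 was called, although Psmf1 was called without 1 embryo in 15 of 24 such fits.

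The chaperones split by gene. Psmd5, which binds the ATPase Psmc2 during assembly of the base and is released later, had levels of 141, 217 and 292 CPM (lowest, median, highest) in 1C and 137, 361 and 522 CPM in 8CB embryos. It had 67.8, 140 and 149 CPM in 2CB and 57.4, 112 and 169 CPM in 4CB embryos. The sides overlapped between 137 and 169 CPM, a range that held the 2CB median and embryos of every other stage. Psmd5 was 2.19-fold lower in 2CB and 4CB embryos (log2 fold change -1.13 ± 0.22 SE, adjusted p = 0.000120). The other base chaperones, Psmd9 (0.44, interval -0.03 to 0.92) and Psmd10 (0.84, interval -0.07 to 1.76), had positive log2 fold changes and were not called by edgeR. DESeq2 called both higher. In edgeR Psmd9 was called with DESeq2's size factors and without 1C replicate 1 or 4CB replicate 1, and Psmd10 without 1C replicate 2 or 8CB replicate 4. Among the core chaperones, Psmg1 was called lower (log2 fold change -0.50, adjusted p = 0.0673) and its stage ranges overlapped. That call was lost without a filter, after thinning, with the replicate block and without 1C replicate 6 (log2 fold change -0.34). Psmg3 was not called (0.28, interval -0.25 to 0.81, and 0.07 without 4CB replicate 6). Psmg4 (209 UMIs) and Psmg2 (131 UMIs) did not pass the filter. Psmg4 had medians of 7.44 CPM in 1C, 10.9 CPM in 8CB, 23.6 CPM in 2CB and 25.6 CPM in 4CB embryos, and without a filter its log2 fold change was 1.06 (adjusted p = 0.0944).

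Summed over all 50 members, proteasome transcripts made up 18336 ± 2239 CPM in 1C and 18757 ± 1695 CPM in 8CB embryos (mean ± SD, n = 6). The sums were 14714 ± 1582 CPM in 2CB and 14003 ± 1343 CPM in 4CB embryos. The sides overlapped between 15802 and 16589 CPM. The base summed to 8186 ± 1544 CPM in 1C, 7479 ± 1849 CPM in 8CB, 5086 ± 894 CPM in 2CB and 4982 ± 683 CPM in 4CB embryos. Psmd1 weighed heavily in it. Its median share of the members' UMIs was 25.0% for 1C and 20.9% for 8CB embryos, and 15.8% for 2CB and 18.5% for 4CB embryos. Without Psmd1 the base summed to 3668 ± 369 CPM in 1C, 3569 ± 447 CPM in 8CB, 2757 ± 512 CPM in 2CB and 2416 ± 412 CPM in 4CB embryos. All members without Psmd1 summed to 14332 ± 1098 CPM over the 12 embryos of 1C and 8CB and 11911 ± 1282 CPM over those of 2CB and 4CB, and the base without it to 3619 ± 394 and 2587 ± 478 CPM.

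The core sums lay closer together, at 4604 ± 446 CPM in 1C, 4637 ± 622 CPM in 2CB, 4169 ± 501 CPM in 4CB and 5139 ± 402 CPM in 8CB embryos. Activators and inhibitor summed to 955 ± 138 CPM in 1C, 1058 ± 170 CPM in 2CB, 1143 ± 65.7 CPM in 4CB and 1098 ± 249 CPM in 8CB embryos. The ranges of the 4 stages overlapped in both subgroups. The lid summed to 4081 ± 687 CPM in 1C, 3439 ± 497 CPM in 2CB, 3241 ± 519 CPM in 4CB and 4317 ± 379 CPM in 8CB embryos. The chaperone sums were 498 ± 105, 491 ± 82.9, 466 ± 96.1 and 718 ± 163 CPM for the same stages, so that the highest mean was that of 8CB embryos.

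**Figure D5:**
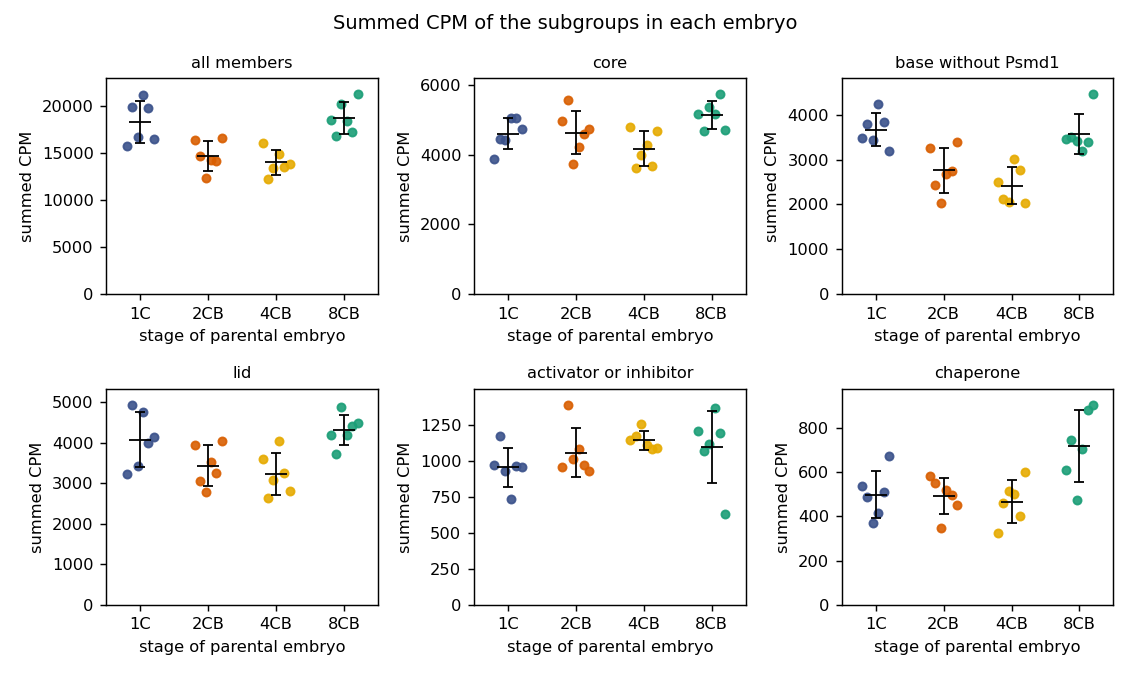
Summed CPM of all members and of each subgroup in each embryo, by stage of the parental embryo, with bars at the mean ± SD (n = 6). The base is drawn without Psmd1. The sums of all members, base and lid have lower means in 2CB and 4CB embryos, and core and activator sums overlap among the 4 stages.

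Within each pool, where pool and stage are not mixed, no member was called. In 8CB against 1C embryos 0 of 40 members passed the test in edgeR, as did 0.0% of all genes, and DESeq2 called 0 members and 0.724% of all genes. At an unadjusted p below 0.05 there were 4 members (Psmd7, Psme1, Psmd5 and Psmd9), or 4 of 40, against 9.26% of all genes. Psmd7 was nearest to a call, with a log2 fold change of -0.85 ± 0.26 SE (adjusted p = 0.241). In 4CB against 2CB embryos edgeR called 0 members and 0.0337% of all genes, and DESeq2 called 0 members and 0.168% of all genes. There, 2 members had an unadjusted p below 0.05 (4.43% of all genes did), Psmc3 and Psmb4, both with a log2 fold change of -0.59 (adjusted p = 1.0). The difference between these changes, (4CB - 2CB) - (8CB - 1C), was called for 0 members by edgeR, against 0.0% of all genes, and by DESeq2 for 0, against 0.572%, with 4 members (Psmd7, Psmd9, Psmb4 and Psma5) at an unadjusted p below 0.05 against 8.96% of all genes.

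Among the 4 stages tested together, 17 of 40 members were called, against 47.1% of all genes. Across the pools, 2CB against 1C embryos gave 14 called members, 10 lower and 4 higher, with 41.5% of all genes called, 24% higher. In 4CB against 8CB embryos 16 were called, 14 lower and 2 higher (background 40.2%, with 23.2% higher). In 4CB against 1C embryos 14 were called, 11 lower and 3 higher (background 40.9%, with 23.5% higher), and in 2CB against 8CB embryos 16 were called, 14 lower and 2 higher (background 38.4%, with 22.0% higher). The total shares of members called, 35.0% to 40.0%, were thus near the backgrounds, and the excess lay in the lower direction, with 16.4% to 17.5% of all genes called lower in each of these pairs. Between 2CB against 1C and 4CB against 8CB, which have no embryo in common but cross the same pools, 8 members were called lower in both: Psma6, Psmb5, Psmb10, Psmc1, Psmc5, Psmd1, Psmd5 and Psmd8. Psmb10 is listed although its direction was fixed by the filter. With Psmb10 counted, the 8 were 80.0% of the members called lower in the first pair and 57.1% in the second, against 63.0% and 65.0% for all genes. Psmb6 alone was called higher in both, with log2 fold changes of 1.09 and 0.83, which made 1 of the 4 members called higher in the first pair and 1 of the 2 in the second, where all genes gave 67.4% and 69.7%.

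The spread between embryos of a stage is given as a description, with no test. The median BCV was 0.325 over the 40 tested members and 0.417 over all tested genes. Of the members 37, or 92.5%, lay below the value that the fitted trend gives for their expression level, against 63.7% of all genes. Psma1 (0.559), Psmb3 (0.485) and Psma5 (0.445) were the members above their trend, and these 3 with Psmb10, Psmd10 and Psme1 were above the median of all genes. The 10 members that did not pass the filter have no BCV.

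Genes that work with the proteasome without bearing these names were examined as 4 lists with 39 genes, of which 30 were tested. Of these, 12 were called lower and 4 higher, so that the share called (53.3%) was near the 55.3% of all genes. Their shares called lower and higher were 40.0% and 13.3%, against 24% and 31.3%. Proteins that associate with the particle gave 7 lower and 1 higher of 9 tested. Among them was Adrm1, the ubiquitin receptor Rpn13, with lowest, median and highest levels of 194, 293 and 375 CPM in 1C and 252, 291 and 403 CPM in 8CB embryos. In 2CB it had 117, 129 and 141 CPM and in 4CB embryos 52.7, 79.5 and 272 CPM. Only 1 of the 4CB embryos reached the range of the other side, and the log2 fold change was -1.36 ± 0.22 SE (adjusted p = 6.7e-06). Sem1, a small lid subunit, was lower by the same test (log2 fold change -0.68), as were Pomp, the maturation factor of the core (-0.45), and Akirin2, which carries proteasomes into the nucleus (-0.69).

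Ubiquitin shuttles with Vcp, the segregase that extracts ubiquitinated proteins, gave 4 lower (36.4%, against 24% of all genes) and 2 higher (18.2%, against 31.3%) of 11 tested. Zfand5, a zinc finger protein that binds and stimulates the proteasome, was lower (log2 fold change -2.26, adjusted p = 2.4e-06), with 136 to 349 CPM in 8CB and 70.0 to 297 CPM in 1C embryos. It had 15.2 to 91.8 CPM in 2CB and 0 to 61.6 CPM in 4CB embryos, and 1 of the 2CB embryos reached the range of 1C. The shuttle proteins Ubqln4 (log2 fold change 1.66, adjusted p = 9.12e-06) and Ubqln1 (0.60, adjusted p = 0.00347) were higher. The lowest, median and highest levels of Ubqln4 were 16.0, 86.1 and 117 CPM in 1C, 119, 212 and 364 CPM in 8CB, 213, 423 and 808 CPM in 2CB and 198, 443 and 546 CPM in 4CB embryos, so that 1C embryos lay below all others and 8CB embryos overlapped those of 2CB and 4CB. In 4CB against 8CB embryos neither was called, with log2 fold changes of 0.74 for Ubqln4 (adjusted p = 0.126) and 0.47 for Ubqln1 (adjusted p = 0.124). Of 5 tested regulators of proteasome transcription, 1 was called, against 55.3% of all genes: Nrd1, the protease nardilysin, was higher at 1.11 (adjusted p = 1.18e-05). Nfe2l1 itself was not called, with a log2 fold change of -0.25 ± 0.25 SE (adjusted p = 0.417), and Nfe2l2, with 164 UMIs, did not pass the filter. Of 5 tested ubiquitin genes and E1 enzymes, 1 was called, against the same background, the ubiquitin gene Rps27a, which was lower (log2 fold change -0.55, adjusted p = 0.0940).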

How the data were processed

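Single pseudoblastocysts were sequenced with CEL-Seq2, a 3′ method in which transcripts carry UMIs. The authors' methods and the submitters' processing notes name HISAT2 2.2.6 with GRCm38, HTSeq 0.6.1 and, later, DESeq2 1.10.1. The deposited values are UMI counts per gene and embryo, not normalized. The table's leading columns have the layout of another counting program, featureCounts, so which program made these counts is not settled here. The strand setting and annotation release are not given in the sources used here. The largest count, 53029, exceeds the 4096 sequences of a 6-base UMI, so the bound given for Psmb8, which covers counting error only, may be too narrow. The confidence intervals of fold changes come from the fits and reflect the spread between embryos. Another 24 columns, named Morula, were not used.

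Symbols came from GENCODE M21 (51719 of 52366 genes matched). Of the members' symbols, 4 further matches are not protein-coding and were left out. Subgroups, lists and promoter motifs were chosen with earlier results of these data known, and the motifs, Psmc3ip's and Psme2b's subgroups and the Psmb6 to Psmb5 ratio after the values were seen. The named genes were the catalytic, tissue-restricted, activator, inhibitor and chaperone genes, up to 6 members each way with the largest called fold changes, any member called within a pool and the highest and lowest fold change of each subgroup, and in the other lists up to 3 called genes each way with Nfe2l1, Nfe2l2, Pomp, Adrm1 and Sem1. Other members and Rps27a were added after their values were seen.

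The 24 embryos, 6 per stage, were fitted with 1 mean per stage in edgeR 4.0.16 (TMM factors 0.928 to 1.07, filterByExpr, quasi-likelihood F test, R 4.3.3), with Benjamini-Hochberg adjustment over 5940 genes and a threshold of 0.1. Standard errors were derived from the F statistic. Nothing in the labels says which parental embryos they came from. The 2CB, 4CB and 8CB embryos may include sisters from 1 parental embryo, which would not be independent. The p-values therefore measure only the spread between these embryos. For the 36 same-numbered pairs across stages, deviations from stage means had a mean correlation of -0.0156 (range -0.248 to 0.224), so numbers do not pair embryos. On simulated counts for 12 against 12 embryos, with 200 of 5940 genes changed, edgeR recovered 61% of changes of 1 and 97.5% of changes of 2 on the log2 scale, with 6.87% and 8.88% false among its calls. DESeq2 1.42.0 recovered 65% and 98.5%, with 15.4% false in both. For 8CB against 1C edgeR recovered 11.5% and 78%, and for 4CB against 2CB 11% and 85%. In the main division 55.3% of tested genes were called, far more than the 200 changed here. The simulated rates need not hold for its calls.

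Alternatives were DESeq2, its size factors in edgeR, no filter, a minimum of 5 UMIs in 12 embryos, all embryos thinned to 70941 UMIs, a threshold of 0.05, the embryo number as a block, only the stages compared, other CPM denominators and each embryo left out. 3′ windows of 50 bases from the last 300 bases of members' transcripts were searched, on both strands, in GENCODE M21 transcripts of other genes.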

Additional observations from a re-analysis of the deposited data

Results flagged for a closer look

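In 128 groups of 6 embryos tested, for 31 named genes with at least 24 UMIs and for the members' summed CPM, 18 had an embryo that stood apart from the other 5 by Dixon's criterion, where chance flags about 1 in 20 groups. Among core and base genes, 2CB replicate 6 was high for Psmb6 (1394 CPM), and 1C replicate 2 was high for Psmc5 (1435 CPM, next 1114 CPM). Psmb7 stood out in 2CB replicate 2 (11.9 CPM) and 4CB replicate 4 (17.7 CPM), on few UMIs. In the lid, 1C replicate 2 was also high for Psmd8 (1363 CPM, next 817 CPM).

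Among chaperones, Psmd10 was high in 1C replicate 2 (32.1 CPM) and in 2CB replicate 2 (41.8 CPM), and Psmd9 was high in 2CB replicate 1 (201 CPM). Psmd5 was low in 2CB replicate 3 (67.8 CPM, next 134 CPM), and Psmg1 was high in 8CB replicate 5 (239 CPM). Among activators and the inhibitor, Psme3 was high in 2CB replicate 2 (1047 CPM), Psme4 in 4CB replicate 3 (377 CPM, without which its log2 fold change was 0.13 in place of 0.27) and Psmf1 in 1C replicate 1 (110 CPM).

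Of the associated genes, Adrm1 was high in 4CB replicate 4 (272 CPM, next 85.7 CPM), and without that embryo its log2 fold change was -1.71 in place of -1.36. Akirin2 was high in 2CB replicate 3 (164 CPM) and Ubqln1 in 1C replicate 1 (261 CPM). Nrd1 was low in 8CB replicate 2 (153 CPM) and Nfe2l2 in 4CB replicate 5 (7.53 CPM). Without the embryo that stood apart, Psmd10 was called higher (1C replicate 2 left out, log2 fold change 1.11, as it was without 8CB replicate 4), and the uncalled value of Psme3 changed sign (2CB replicate 2 left out, -0.09 in place of 0.03).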

How the results depend on the processing

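Between 2CB with 4CB and 1C with 8CB embryos, 15 members were called after thinning to equal depth, 16 at a threshold of 0.05 (without Psmb1, Psme1 and Psmg1), 17 with the replicate block, 17 without a filter, 19 with DESeq2's size factors, 21 with DESeq2 and 22 with at least 5 UMIs in 12 embryos, against 19. The median of all tested genes moved from 0.12 to 0.34 without a filter and to 0.06 with at least 5 UMIs in 12 embryos, a looser filter than the one used. Of the 19 calls, the replicate block lost Psmb1 and Psmg1, and thinning lost Psmb1, Psmc6, Psmd6 and Psmg1. The fit without a filter lost Psmb1, Psme1 and Psmg1 and gained Psmg4, and DESeq2's size factors lost Psmb1 and gained Psmd9. DESeq2 gained Psmd9 and Psmd10, and at least 5 UMIs in 12 embryos gained Psmb2, Psmf1 and Psmg4. Leaving out 1C replicate 6 lost Psmg1, and each of 4 other embryos lost Psme1. No called direction reversed among the named genes, and of the uncalled ones only Psme3 changed sign (-0.09 to 0.04 with single embryos left out). Without a filter, calls fell from 14 to 9 in 2CB against 1C, from 14 to 9 in 4CB against 1C and from 16 to 10 in 2CB against 8CB, and thinning also gave 10 in the last. The causes were not tested. The threshold of 0.05 left 10 of 16 other pathway genes. Leaving out single embryos gave 19 to 22 members for the main division, 15 to 20 among the stages, and, in the pairs across pools, 11 to 14 in 2CB against 1C, 12 to 16 in 4CB against 1C, and 13 to 17 in both pairs against 8CB. At this depth, 10 of the 50 members had too few UMIs to pass the filter on low counts.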
